A study of Arabidopsis thaliana with 6 samples.

Results

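The 26S proteasome is the large protease that degrades proteins tagged with ubiquitin, and 51 Arabidopsis thaliana genes for its subunits are described here, of 33977 genes in the count tables. They were chosen by annotation and not by their values, though with earlier results of these data known. They are the listed genes of the 20S core particle (named PAA to PAG and PBA to PBG) and of the 19S regulatory particle (named RPT and RPN). The 51 genes code for 32 subunits, of which 19 have 2 gene copies among the 51 and 13 have 1. Further copies outside the 51 are described below. The study grew Col-0 plants, the common laboratory accession, from seed for 10 days at 22 °C with 16 h of light and 8 h of dark, and sequenced messenger RNA of whole plants. The 3 CsCl samples grew on half-strength MS, a mineral plant medium, with 1.5 mM cesium chloride; the 3 control samples, labelled Mock, grew on the same medium without it. No mutation or transgene is named for either group, and each group stands at 1 time point and 1 dose.

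In the core particle, 2 rings of alpha subunits gate the chamber and 2 rings of beta subunits form it, and the active sites lie on the beta 1, 2 and 5 subunits. In the regulatory particle, 6 RPT ATPases form a ring that unfolds substrates and threads them into the core, while RPN subunits bind ubiquitin chains, cut them off the substrate and hold the particle together. When proteasome function is impaired in plants, subunit genes are known to be raised together by the NAC transcription factors NAC53 and NAC78. These bind a short promoter element with the letters TGGGC.

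None of the 51 subunit genes was called higher or lower with CsCl, where 2.16% of all 21005 tested genes were called (454 genes, by edgeR's quasi-likelihood test at a threshold of 0.05 on the p adjusted by Benjamini-Hochberg over all of them). By direction, 0.843% of all genes were higher and 1.32% lower. All 51 passed the filter on low counts, and the lowest count of any of them in any library was 149. Their fold changes lay between 0.938 for RPN13 and 1.13 for PAA2, with a median log2 fold change of 0.063, beside 0.0052 over all tested genes. Of the 51, 40 had a fold change above 1 (78.4%), beside 51.4% of all tested genes. The members' adjusted p ran from 0.186 to 0.982 (edgeR). At an unadjusted p under 0.05 there were 2, PAA2 and RPN9A, both with higher fitted values, beside 14.4% of all genes in either direction and 6.67% in that direction. DESeq2 called 0 of the 51 and 2.7% of all its tested genes, and limma-voom called 0 of the 51 and 2.08%.

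The intervals of these differences were narrow. The 95% intervals of all 51 genes lay within a 1.5-fold difference either way, and those of 48 within 1.25-fold; the 3 exceptions were PAF2, PBD2 and PBE2. The widest bounds over all 51 were 0.776-fold and 1.26-fold. The median SE of a log2 fold change was 0.063 for the subunit genes and 0.084 for the 13842 tested genes in the same range of abundance (5.44 to 144 CPM, CPM being counts scaled to a common library size). The lower end of that range is set by PAF2, and genes were not matched by abundance within it. Of those 13842 genes 2.26% were called, and the smallest log2 difference called among them was 0.23, which is larger than the fitted value of every subunit gene.

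**Figure D1:**
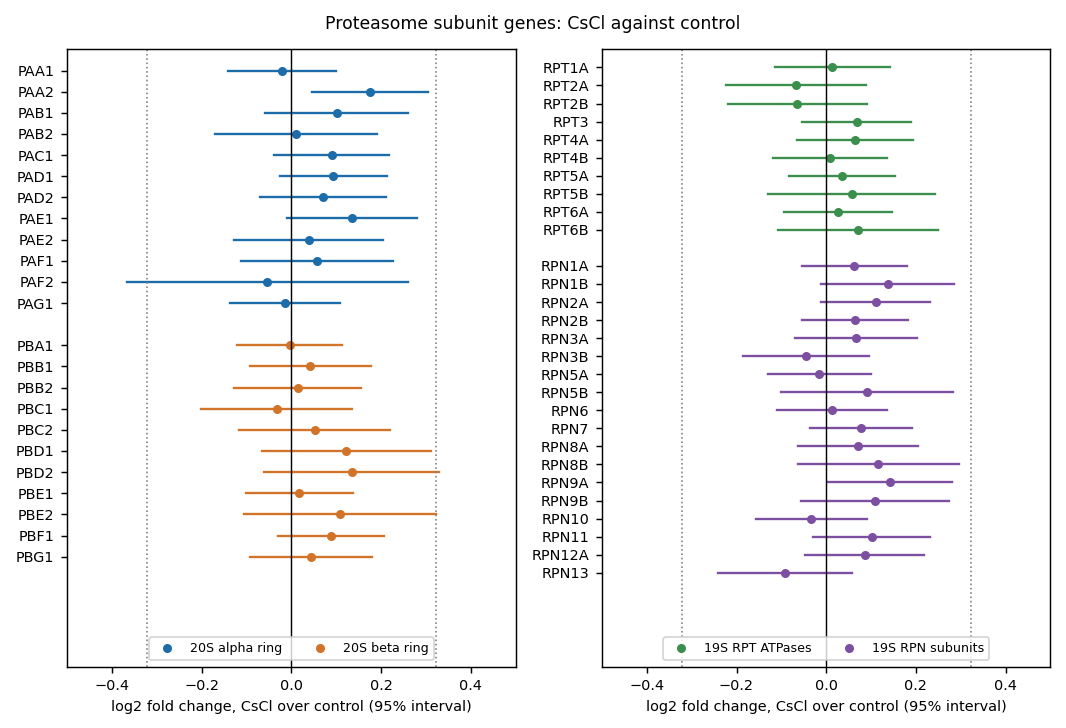
Log2 fold change of each of the 51 subunit genes, CsCl over control, with its 95% interval (edgeR, 3 libraries per group); dotted lines mark a 1.25-fold difference either way. The points lie between -0.09 and 0.18, most to the right of 0, and the intervals of PAF2, PBD2 and PBE2 cross a dotted line.

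The 3 CsCl libraries together lay above all 3 control libraries in 9 of the 51 genes (17.6%), beside 10% of all tested genes. These 9 were PAA2, PAD1, PAE1, PBF1, RPT4A, RPN2A, RPN2B, RPN7 and RPN8B. In 1 gene, RPN3B, all CsCl libraries lay below all control libraries, beside 9.75% of all tested genes. Summed over the 51 genes, the level was 2983, 3068 and 3082 CPM in CsCl libraries and 2981, 2881 and 2985 CPM in control libraries. CsCl replicates 2 and 3 were the highest and control replicate 2 was the lowest, while CsCl replicate 1 lay within the control range. The mean sum was 3044 ± 53.5 CPM with CsCl and 2949 ± 58.9 CPM in control (SD, n = 3 each), a ratio of 1.03.

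The shift differed between libraries. Relative to each gene's mean over the 6 libraries, 19, 34 and 42 of the 51 genes stood above that mean in CsCl replicates 1, 2 and 3, against 24, 9 and 22 in control replicates 1, 2 and 3. The median log2 deviation was -0.0094, 0.033 and 0.041 in the CsCl libraries and -0.0043, -0.066 and -0.015 in the control libraries. Control replicate 2 stood below the others on both measures, and without it the median log2 fold change of the subunit genes was 0.028 and 33 of 51 lay above 0. Without CsCl replicate 3 that median was 0.042. Within a group the subunit genes had a median coefficient of variation of 3.37% in CsCl libraries and 4.03% in control libraries. Genes of the same abundance range, not matched by abundance within it, had 5.53% with CsCl and 6.75% in control.

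**Figure D2:**
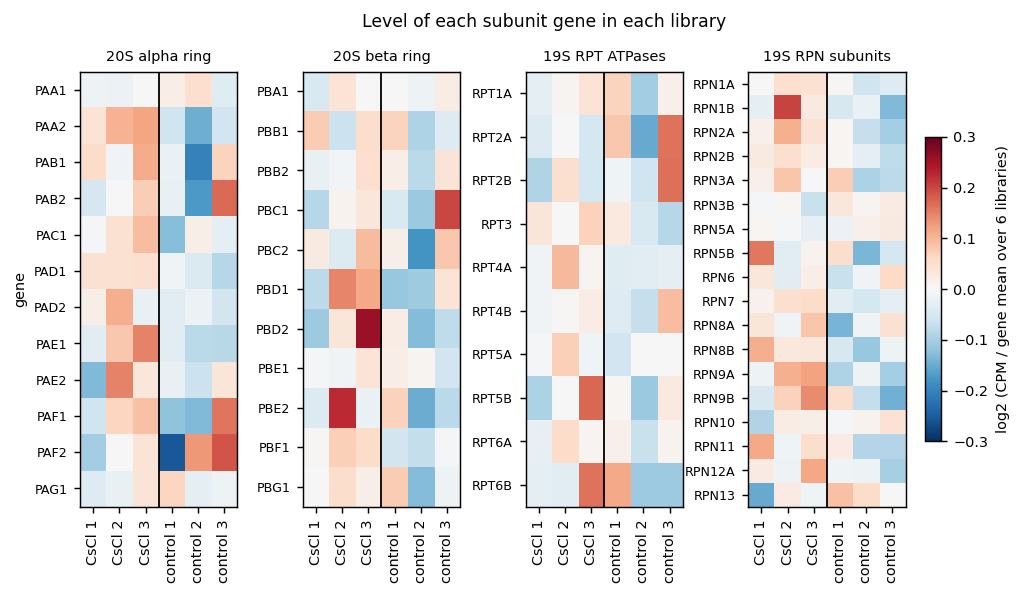
Heat map of the 51 genes (rows, by module) in the 6 libraries (columns, the 3 CsCl libraries left of the 3 control libraries); colour is log2 of the CPM over the gene's mean across all 6. The column of control replicate 2 is mostly below the mean, with 9 of 51 genes above it, and that of CsCl replicate 3 mostly above, with 42.

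These are sums over whole plants, in which fewer cells of a type and less RNA per cell cannot be told apart. Total counts per library ran from 32075069 to 44108369 with CsCl and from 32694267 to 35442349 in control, and the 51 genes took 0.301% to 0.316% of them with CsCl and 0.287% to 0.299% in control. Markers of root tissue differed between the groups: 5 of 13 tested root markers were lower with CsCl and 0 higher (edgeR; among them CASP1 and CASP2, which build the Casparian strip, the root beta-glucosidase gene PYK10 and the root hair wall gene PRP3), with summed levels of 4573 to 5143 CPM in CsCl and 5964 to 6305 CPM in control libraries. PYK10 made up most of that sum, and without it the other 12 stood at 292.2 to 336 CPM in CsCl and 360 to 384.3 CPM in control libraries. Of 10 leaf photosynthesis and 8 dividing cell markers 0 were called, with summed levels of 50430 to 53600 and 92.9 to 107 CPM in CsCl against 51160 to 58220 and 93.2 to 101 CPM in control libraries. For comparison, 0.843% of all tested genes were called higher and 1.32% lower (edgeR). No marker of the 3 lists was at 0 in every library. The part of tissue composition in the subunit values was not tested.

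The alpha rings had 12 genes for 7 subunits, with a median log2 fold change of 0.064 and 9 of 12 values above 0. PAA2 (AT2G05840), a copy of the alpha 1 subunit, had 47.6, 49.8 and 50.2 CPM in CsCl libraries against 44.4, 41.8 and 44.5 CPM in control libraries. All 3 CsCl values lay above all 3 control values, and PAA2 had the highest fold change of all members, at a log2 value of 0.18 ± 0.060 (SE), a 95% interval of 0.05 to 0.30 and an adjusted p of 0.186 (edgeR). PAE1 (AT1G53850), a copy of alpha 5, had 33.5, 36.3 and 37.98 CPM with CsCl against 33.5, 32.4 and 32.4 CPM in control, so that CsCl replicate 1 was only just above control replicate 1. PAD1 (AT3G51260), a copy of alpha 4, had 65.0, 65.1 and 65.2 CPM in CsCl and 62.5, 61.2 and 59.4 CPM in control libraries. The CsCl values of PAD1 were nearly equal and all higher, with a log2 difference of 0.09 (adjusted p = 0.482, edgeR).

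PAC1 (AT3G22110), the single alpha 3 gene here and the most abundant alpha gene per length, had 84.5, 87.5 and 90.4 CPM in CsCl and 77.5, 85.8 and 83.2 CPM in control libraries. The groups overlapped. PAF2 (AT1G47250), the minor copy of alpha 6, was the least abundant of the 51 genes, at 5.03, 5.41 and 5.57 CPM with CsCl against 4.54, 5.93 and 6.17 CPM in control. Its control values enclosed the CsCl values, and its interval was the widest, -0.37 to 0.26 on the log2 scale. PAF2 also shares 805 of its 1237 exon bases (65.1%) with AT1G47260 on the opposite strand, a gene at 103 ± 3.81 CPM with CsCl and 104 ± 4.61 CPM in control (SD, n = 3 each). The libraries came from a stranded kit, but the sources used here do not give the strand setting of the counting, so how many PAF2 counts belong to that neighbour cannot be told.

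The beta rings had 11 genes for 7 subunits, a median log2 fold change of 0.044 and 9 of 11 values above 0. The active-site genes showed small differences with intervals on both sides of 0. PBA1 (AT4G31300), the beta 1 subunit that cuts after acidic residues, had 80.0, 84.9 and 82.5 CPM in CsCl libraries against 82.5, 81.6 and 83.9 CPM in control libraries. The values interleaved, and the log2 fold change was -0.0039 with a 95% interval of -0.12 to 0.11 (edgeR adjusted p = 0.982); it had the other sign with upper-quartile scaling and with total counts only. PBB1 (AT3G27430), the major copy of the trypsin-like beta 2 subunit, had 79.4, 72.1 and 78.1 CPM with CsCl and 79.0, 70.6 and 73.4 CPM in control, and its other copy PBB2 (AT5G40580) had 31.3, 31.6 and 33.0 CPM with CsCl against 32.3, 30.1 and 32.7 CPM in control. PBE1 (AT1G13060), the major copy of the chymotrypsin-like beta 5 subunit, had 76.6, 76.2 and 78.9 CPM with CsCl against 77.8, 77.2 and 73.8 CPM in control. The groups overlapped in all of these active-site genes. PBE2 (AT3G26340), the minor copy of beta 5, had 13.1, 15.7 and 13.3 CPM with CsCl and 14.1, 12.2 and 12.7 CPM in control, also with overlap, and its interval of -0.11 to 0.32 was among the widest.

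Of the other beta genes, PBF1 (AT3G60820), the beta 6 gene, had 76.7, 80.3 and 79.5 CPM in CsCl libraries and 73.5, 72.7 and 76.3 CPM in control libraries. Its groups were separate by a narrow margin, and they differed by 0.09 on the log2 scale (adjusted p = 0.513, edgeR). PBD2 (AT4G14800), a copy of beta 4, had 24.0, 26.5 and 30.9 CPM with CsCl against 26.2, 23.6 and 24.6 CPM in control, a spread set by CsCl replicate 3. Its other copy PBD1 (AT3G22630) had 16.1, 18.8 and 18.4 CPM with CsCl against 15.7, 15.8 and 17.5 CPM in control, and both copies overlapped between groups.

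The RPT ring had 10 genes for 6 ATPases, with the lowest median log2 fold change of the 4 modules, 0.031, and 8 of 10 values above 0. RPT3 (AT5G58290) had 108, 105 and 110 CPM in CsCl libraries against 108, 102 and 99.3 CPM in control libraries. RPT4A (AT5G43010) had 41.8, 45.0 and 42.4 CPM with CsCl against 41.1, 41.2 and 41.4 CPM in control. RPT3 overlapped between groups, while RPT4A did not; it differed by 0.06 on the log2 scale (adjusted p = 0.688, edgeR). RPT2A (AT4G29040), an ATPase gene known for its part in root meristem and organ size, had 89.2, 91.8 and 88.4 CPM with CsCl against 97.0, 82.7 and 103 CPM in control, where the control values enclosed those with CsCl. RPT5A (AT3G05530), the most abundant RPT gene per length, had 125, 131 and 124 CPM with CsCl and 120, 125 and 125 CPM in control, and its minor copy RPT5B (AT1G09100) had 17.8, 18.99 and 21.4 CPM with CsCl against 19.1, 17.6 and 19.4 CPM in control. Both copies of RPT5 overlapped between groups.

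The RPN subunits had 18 genes for 12 subunits, a median log2 fold change of 0.074 and 14 of 18 values above 0. Summed, they stood at 1162, 1189 and 1186 CPM in CsCl libraries and 1143, 1126 and 1125 CPM in control libraries. Of the 4 module sums, only this had groups that did not overlap. Among all tested genes taken singly, 10% had all CsCl libraries above all control libraries. RPN9A (AT5G45620), a lid subunit gene, had 39.9, 43.4 and 43.8 CPM with CsCl against 37.8, 39.9 and 37.5 CPM in control. CsCl replicate 1 lay just under the highest control value, and the log2 fold change of 0.14 ± 0.065 had an interval of 0.0037 to 0.28 (SE; edgeR unadjusted p = 0.0449 and adjusted p = 0.334). RPN2A (AT2G32730), one of the large scaffold subunits that contact the ATPase ring, had 145, 154 and 148 CPM with CsCl against 144, 137 and 134 CPM in control. All CsCl values were higher, that of replicate 1 only just, and the log2 difference was 0.11 ± 0.057 (SE; adjusted p = 0.409, edgeR).

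The genes for subunits that handle ubiquitin had fitted log2 fold changes on both sides of 0, and all their 95% intervals held 0. RPN11 (AT5G23540), the metalloprotease that cuts ubiquitin chains off substrates, had 65.8, 60.4 and 63.2 CPM in CsCl libraries against 61.9, 57.3 and 57.3 CPM in control libraries. RPN10 (AT4G38630), a ubiquitin receptor, had 66.7, 72.1 and 71.9 CPM with CsCl against 70.8, 71.5 and 73.2 CPM in control. RPN13 (AT2G26590), another ubiquitin receptor, had 27.3, 30.8 and 30.0 CPM with CsCl against 32.2, 31.5 and 30.3 CPM in control. The groups overlapped in all 3 genes, and RPN13 had the lowest fold change of the 51, at -0.09 ± 0.070 on the log2 scale (SE; 95% interval -0.24 to 0.06; edgeR adjusted p = 0.603). RPN1, the large subunit that docks shuttle receptors, is coded by RPN1A (AT2G20580), at 137, 142 and 142 CPM with CsCl against 138, 132 and 134 CPM in control, and by RPN1B (AT4G28470), at 54.2, 63.7 and 56.4 CPM with CsCl against 53.5, 54.5 and 50.5 CPM in control. Both copies overlapped between groups through CsCl replicate 1. The lid subunit gene RPN7 (AT4G24820), the most abundant RPN gene per length, had 104, 107 and 108 CPM with CsCl against 101, 99.8 and 102 CPM in control, with all CsCl values higher and a log2 difference of 0.08 (adjusted p = 0.559, edgeR).

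The members not yet described lay in the same narrow range. In the core, PAB1 and PAB2 (alpha 2), PAD2 (alpha 4), PAE2 (alpha 5), PAG1 (alpha 7), PBC1 and PBC2 (beta 3) and PBG1 (beta 7) had log2 fold changes from -0.03 (PBC1) to 0.10 (PAB1), and all 8 overlapped between groups. Of the ATPase genes, RPT1A, RPT2B and RPT4B had log2 fold changes of 0.01, -0.06 and 0.0092, with overlap in each. Among the RPN genes, RPN8B, the minor copy of the scaffold partner of RPN11, had 15.1, 14.3 and 14.3 CPM with CsCl against 13.6, 12.9 and 13.9 CPM in control. RPN2B, the minor copy of RPN2, had 68.9, 69.9 and 68.6 CPM with CsCl against 67.9, 66.3 and 64.1 CPM in control. All CsCl values of these 2 genes were higher, while RPN5A, RPN6, RPN8A, RPN9B and RPN12A overlapped between groups at log2 fold changes from -0.02 (RPN5A) to 0.11 (RPN9B). Exons of 19 of the 51 genes overlap exons of another gene, and after PAF2 the largest overlaps are those of RPT1A (16.1% of exon bases), PBD2 (15.7%), RPN5A (13.2%) and PBF1 (12.5%), all on opposite strands.

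The subunits were also compared by their level per length. On the scale of CPM per kilobase of exon, with copies added up, the 32 subunits had a median of 56.7 in CsCl and 54.1 in control libraries. RPT5 was the highest, at 86.9 ± 2.40 with CsCl and 84.7 ± 1.55 in control, and RPN13 the lowest, at 15.2 ± 0.957 with CsCl and 16.2 ± 0.509 in control (SD, n = 3 each), a 5.47-fold spread of the means over all 6 libraries. The subunits of the alpha rings ran from 49.9 (PAF) to 78.0 (PAA), those of the beta rings from 38.3 (PBD) to 76.4 (PBB), those of the RPT ring from 46.6 (RPT6) to 85.8 (RPT5) and the RPN subunits from 15.7 (RPN13) to 61.6 (RPN1). Of the 31 pairs of neighbours in the order of the means over all 32 subunits, 24 had overlapping library values with CsCl and 26 in control, 22 of them in both groups. The 3 pairs separate in both groups were PAD above PBA, RPT1 above RPN1, and RPN12 above RPN13. RPN13 stood well below the next lowest, RPN12, at 37.4 ± 1.77 with CsCl and 35.3 ± 1.19 in control. The ratio of the summed level per length of the 18 regulatory subunits to that of the 14 core subunits was 1.127, 1.113 and 1.098 in CsCl libraries against 1.127, 1.13 and 1.105 in control libraries, with overlap.

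**Figure D3:**
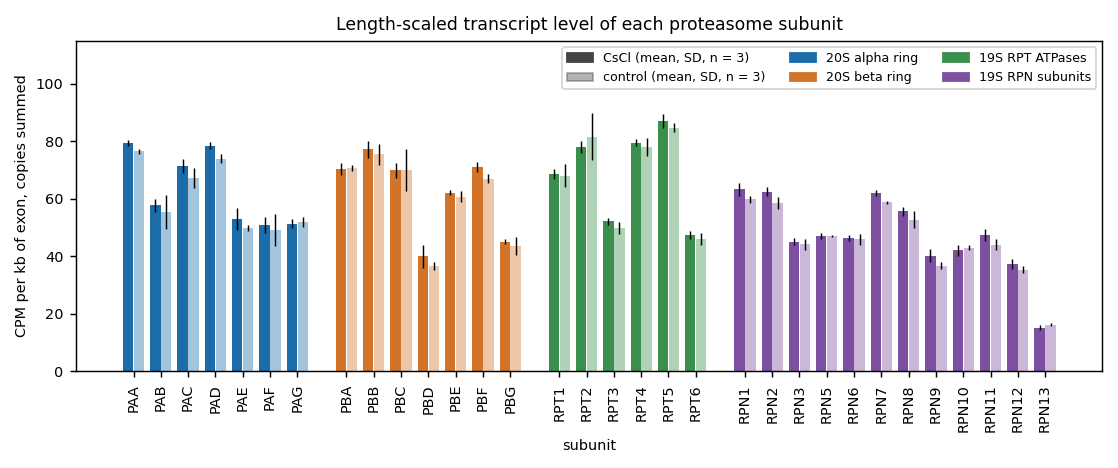
Level of each of the 32 subunits in CPM per kilobase of exon, with gene copies summed; bars are means and error bars SD over 3 libraries, CsCl solid and left, control pale and right. Bars of the 2 groups are close in every subunit, RPT5 is the tallest pair and RPN13 the shortest.

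A gene coding for a further RPT1 copy lies outside the 51. RPT1B (AT1G53780) had 90.7, 91.2 and 90.7 CPM in CsCl libraries against 79.8, 89.5 and 79.8 CPM in control libraries, with all CsCl values higher and a log2 difference of 0.13 ± 0.060 (SE; adjusted p = 0.345, edgeR). It made up 27.3% of the RPT1 level per length with CsCl and 25.8% in control, so the RPT1 bar, which holds RPT1A alone, leaves that share out. Over the 6 libraries RPT1A stood at 68.4 and RPT1B at 24.7 CPM per kilobase, together above RPT5 at 85.8. With RPT1B counted, RPT1 would be the highest subunit, and the RPT range, the spread and the order of neighbours given above would change. The share depends on the merged exon lengths, 3522 bases for RPT1B and 1984 for RPT1A, and would be larger without length scaling. The other such copies were nearly silent. PAC2 (AT4G15165) had 1.296, 1.432 and 1.392 CPM with CsCl against 1.005, 1.053 and 0.646 CPM in control, and RPN12B (AT5G42040) had at most 0.541 CPM in any library. These 3 genes were looked up after the members' values were known.

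In 17 of the 19 subunits with 2 copies, the copy named 1 or A had the larger mean share per length over the 6 libraries. PAE2 and RPT4B were the exceptions. The order within PBD and PAE did not hold in every library. PBD1 held 48.7% in control replicate 1 and 48.5% in CsCl replicate 3, and PAE1 held 50.4% and 50.6% in CsCl replicates 1 and 3. Without length scaling, PBD2 exceeded PBD1 and PAE1 exceeded PAE2 in mean CPM of both groups. The larger copy held between 51.0% (PBD) and 91.2% (PAF1) of its subunit's level over the 6 libraries. The share of PAA1 within PAA was 60.9%, 59.8% and 59.9% in CsCl libraries against 63.1%, 65.0% and 62.2% in control libraries. PAA was the only one of the 19 pairs whose groups did not overlap, and its shift was the largest, -3.21 percentage points (60.2% ± 0.603 with CsCl, 63.4% ± 1.44 in control; SD, n = 3 each). An exact two-sided permutation test of 3 against 3 libraries cannot give a p below 0.1, the value it had here (0.76 after Benjamini-Hochberg adjustment over the 19 pairs), so it could make no call on any pair. For the levels of single genes, the groups were separate with CsCl above in 10% of all tested genes and with CsCl below in 9.75%. One separate pair of 19 is not more than those shares. PAA1 itself had 57.3, 57.2 and 57.9 CPM with CsCl against 58.7, 59.9 and 56.4 CPM in control, with overlap and a log2 fold change of -0.02 that turned positive with total counts only.

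The next widest gaps between copies were those of PAF and RPN3, 0.11 each on the log2 scale. PAF1 (AT5G42790), a gene whose loss is known to raise arsenic tolerance, had 54.2, 59.0 and 60.1 CPM in CsCl libraries against 52.0, 51.6 and 63.1 CPM in control libraries, where control replicate 3 was the highest of all 6. RPN3A (AT1G20200), a lid subunit gene, had 57.4, 60.1 and 56.8 CPM with CsCl against 59.7, 53.1 and 53.7 CPM in control. RPN3B (AT1G75990) had 27.5, 27.6 and 26.3 CPM with CsCl against 28.2, 27.7 and 28.0 CPM in control, so that all CsCl values were lower, by a narrow margin. RPN5B (AT5G64760), a lid subunit gene and the least abundant RPN gene per length, had 17.0, 14.9 and 15.3 CPM with CsCl against 15.8, 13.8 and 14.7 CPM in control, with overlap.

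**Figure D4:**
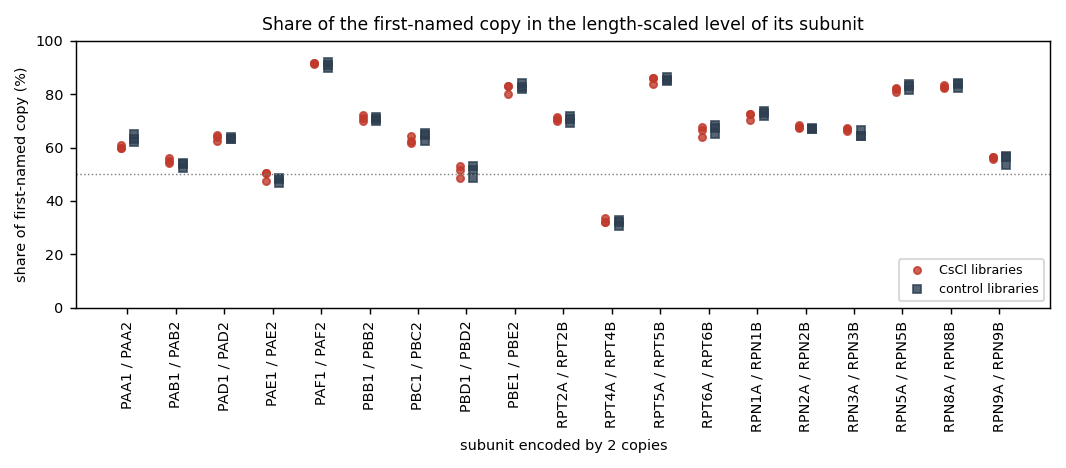
Share of the first-named copy in its subunit's level per length, in percent, for the 19 subunits with 2 copies; each point is a library, CsCl and control side by side. The PAA points are the only ones that separate, from 59.8% to 60.9% with CsCl and from 62.2% to 65.0% in control.

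How well reads can tell copies apart depends on their sequences, which are shown for 2 pairs from the TAIR10.1 RefSeq annotation. Coding identity between copies ran from 80.3% (RPN3) to 94.4% (RPT6), and 9 of 19 pairs held at least 1 window of 100 coding bases with 95 or more identical. For PAA, the pair with the largest shift of a share, the most alike window (coding bases 460 to 559 of both, in exons of PAA1 on chromosome 5 and of PAA2 on chromosome 2) has 1 mismatch, in capitals:
PAA1: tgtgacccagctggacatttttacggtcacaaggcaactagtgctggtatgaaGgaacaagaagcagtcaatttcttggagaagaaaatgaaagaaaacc
PAA2: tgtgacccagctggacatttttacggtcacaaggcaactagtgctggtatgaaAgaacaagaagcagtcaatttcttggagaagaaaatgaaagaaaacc
For RPT6, the most alike pair, coding bases 694 to 793 of RPT6A and RPT6B (AT5G20000), on chromosome 5, do not differ:
RPT6A: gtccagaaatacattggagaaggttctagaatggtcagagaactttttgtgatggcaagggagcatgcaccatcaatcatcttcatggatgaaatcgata
RPT6B: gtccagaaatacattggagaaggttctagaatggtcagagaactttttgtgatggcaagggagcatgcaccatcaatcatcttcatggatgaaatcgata
The sources used here give neither the read length nor the treatment of reads that map to several genes, so levels of single copies, RPT6A and RPT6B above all, are uncertain where such stretches occur. RPT6A (AT5G19990) had 74.0, 78.2 and 75.7 CPM with CsCl against 76.1, 71.9 and 75.9 CPM in control, and RPT6B had 27.4, 27.3 and 31.3 CPM with CsCl against 30.2, 25.9 and 25.9 CPM in control. Both overlapped between groups.

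The promoter element named above was counted. It was picked because factors known to raise subunit genes bind it, so its share among them is not an independent result. The letters TGGGC, read on either strand (as GCCCA on the other), occur in the 250 bases before the transcript start of 24 of the 51 genes (47.1%). Among 27443 protein-coding genes, expressed or not, the share was 22.7%. The other 27 of the 51 have no match in this window. The same letters are also part of the site II element of many growth genes. By module they occur in 7 of 11 beta, 9 of 18 RPN, 5 of 12 alpha and 3 of 10 RPT genes. RPN1B and PBA1 carry several matches and PAA2, the gene with the highest fold change, none; capitals mark the matches in the TAIR10.1 sequence, 5′ to 3′ on the gene's strand, with none of the bases in an exon of another gene.
RPN1B, chr4:14072583-14072832, minus strand: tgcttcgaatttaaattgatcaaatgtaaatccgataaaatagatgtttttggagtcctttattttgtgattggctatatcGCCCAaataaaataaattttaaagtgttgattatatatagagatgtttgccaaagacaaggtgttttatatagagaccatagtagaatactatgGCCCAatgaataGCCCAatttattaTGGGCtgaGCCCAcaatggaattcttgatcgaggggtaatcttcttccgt
PBA1, chr4:15188494-15188743, plus strand: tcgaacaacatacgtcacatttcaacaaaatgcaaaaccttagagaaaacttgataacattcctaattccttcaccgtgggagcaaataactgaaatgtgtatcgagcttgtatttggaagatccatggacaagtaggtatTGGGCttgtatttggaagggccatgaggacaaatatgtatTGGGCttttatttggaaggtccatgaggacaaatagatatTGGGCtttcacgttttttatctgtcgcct
PAA2, chr2:2233769-2234018, plus strand: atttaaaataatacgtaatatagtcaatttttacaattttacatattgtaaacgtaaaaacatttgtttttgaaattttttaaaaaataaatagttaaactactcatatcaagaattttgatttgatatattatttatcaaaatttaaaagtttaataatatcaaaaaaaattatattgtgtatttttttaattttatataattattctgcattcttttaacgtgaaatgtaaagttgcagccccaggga
RPN1B holds 5 matches and PBA1 holds 3. The median log2 fold change was 0.069 over the 24 genes with a match (21 above 0) and 0.038 over the 27 without (19 above 0), given as a description.

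The 2 NAC genes that act on this element in other settings did not pass the test. NAC53 had 40.3, 36.1 and 40.5 CPM in CsCl libraries against 41.4, 34.1 and 33.9 CPM in control libraries. NAC78 had 65.7, 65.4 and 67.4 CPM with CsCl against 64.6, 64.6 and 71.4 CPM in control. Control replicate 1 and control replicate 3 held the highest values, and the groups overlapped in both genes, with log2 fold changes of 0.10 and -0.01 (edgeR adjusted p = 0.654 and 0.942), the second of which turned positive with upper-quartile scaling and with total counts only. Transcript levels say nothing of where these proteins, which are released from membranes when activated, are in the cell. PA200, the alternative activator that caps the core, had 68.7, 67.5 and 62.6 CPM with CsCl against 70.7, 61.0 and 59.0 CPM in control, with overlap (edgeR adjusted p = 0.773).

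Other genes of the ubiquitin-proteasome system were read from 6 lists with 46 genes, of which 44 were tested. Of the 44, 0 were called higher or lower by edgeR (2 at an unadjusted p under 0.05), 31 had a fold change above 1 (70.5%), and their median log2 fold change was 0.050. Over all tested genes, 2.16% were called, 14.4% had an unadjusted p under 0.05 and 51.4% a fold change above 1 (edgeR). The median was 0.018 over 6 genes grouped as regulators and activators. That group holds DSS1I (-0.08), which is not among the 51 genes. The other medians were 0.14 over 4 assembly chaperones, 0.087 over 4 deubiquitinases and 0.058 over 9 shuttle receptor and CDC48 genes. They were 0.011 over 11 ubiquitin and E1 genes and 0.033 over 10 genes of the COP9 signalosome, a complex that resembles the lid of the proteasome. The smallest adjusted p among them was 0.155, for the shuttle receptor gene RAD23D, named after its values were seen, at 100.6, 97.8 and 96.4 CPM with CsCl against 87.4, 91.2 and 75.7 CPM in control (log2 fold change 0.21 ± 0.069, SE). All CsCl values of RAD23D lay above its control values. The 2 untested genes, UMP1B and DSS1V, had 0 counts in all libraries and 1 count in 1 library.

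**Figure D5:**
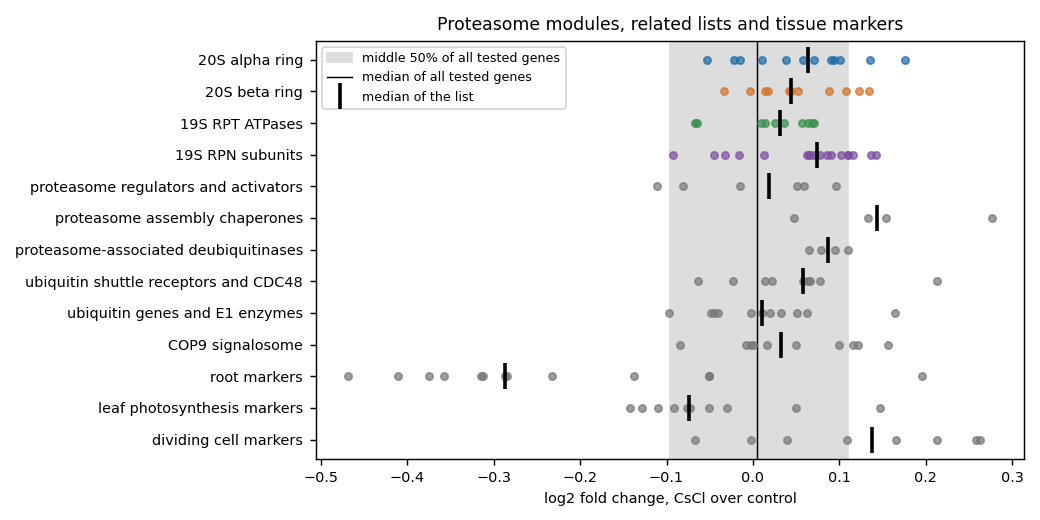
Log2 fold changes, CsCl over control, of the subunit genes by module, of the 6 related lists and of the tissue markers; each point is a tested gene, black bars are medians, and the grey band holds the middle 50% of all tested genes. The medians of the 4 modules lie between 0.031 and 0.074, inside the band. Outside it lie those of the root markers (-0.29), the assembly chaperones (0.14) and the dividing cell markers (0.14). The band shows the spread of single genes and is no measure of the spread of a list's median.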

How the data were processed

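Counts per gene were deposited by the authors as 1 raw count table per library, not normalized; FastQC, STAR, featureCounts, edgeR and the TAIR10 build are named, without versions, per the submitters' processing notes. Between 65.5% and 73.4% of counts from 1 to 50 were even, which fits counting of each mate of a pair. From these counts, genes were filtered with filterByExpr, scaled by TMM and tested with edgeR 4.0.16 (R 4.3.3; quasi-likelihood, group as the only term, Benjamini-Hochberg over 21005 genes, threshold 0.05), with limma 3.58.1 and DESeq2 1.42.0 as alternatives. Log2 fold changes are CsCl over control; intervals are 95%. The fit was tested on simulated data. All 51 loci were found in the TAIR10.1 RefSeq gene table, 38 with the subunit name used here; the other 13 carry their usual subunit name. Lengths are merged exons.

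Members and lists were chosen with earlier results of these data known. Named members are, per module, the 3 smallest p and the highest and lowest level per length, the active-site, deubiquitinating and ubiquitin-receptor subunits, and the 3 pairs whose copies differ most; of the related lists, every called gene (1 root marker is not reported here), NAC53, NAC78 and PA200. RPT6A and RPT6B were added for their sequence. Nothing states that replicates came from separate cultures, so p-values cover no more than the spread among these libraries, which may be technical. Within each group, libraries differed beyond sampling noise (chi-square per gene 6.39 to 13.1).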

Additional observations from a re-analysis of the deposited data

How the results depend on the processing

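No subunit gene was called under any of 17 alternatives (other scaling, filters, DESeq2, limma-voom, robust fit, replicate block, each library left out, organelle genes left out, counts divided by 2); the last was chosen after seeing the data. The members' smallest adjusted p ran from 0.11 to 0.452. With total counts only, 180 genes were lower and the members' median log2 fold change was 0.10, beside 0.044 over all genes. Under that scaling 46 of the 51 members lay above 0 and 9 had an unadjusted p under 0.05 (edgeR), beside 40 and 2 in the main fit. The members' raw shares of total counts did not overlap between groups, while their TMM-scaled sums did. With no filter 301 genes were higher and 518 lower. Leaving out each library in turn gave 89 to 231 genes higher, 90 to 330 lower, 0 members called and a members' median of 0.028 to 0.070. Values near 0 changed sign: PBA1 was 0.012 with upper-quartile scaling and 0.035 with total counts only, NAC78 0.0012 and 0.025, and with total counts only RPN10 was 0.0061 and PAA1 0.017. With single libraries left out, PBB2 ran from -0.027 to 0.033, PBA1 from -0.025 to 0.015, PBE1 from -0.0092 to 0.031, PAF2 from -0.18 to 0.027, NAC78 from -0.044 to 0.032 and RPT5B from -0.027 to 0.11. The cause was not tested. Root marker calls were lost in 9 fits for CASP1, 4 for PRP3 and 2 for PYK10. Replicate numbers did not pair the libraries (correlations of deviations -0.0774, 0.0389 and -0.00956 for numbers 1, 2 and 3); the replicate block called 356 genes and 0 members, at a members' median of 0.063. The widest intervals were those of PAF2, PBD2 and PBE2, which pass 1.25-fold; the part of depth in them was not tested.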
